A study of Homo sapiens with 4 samples.

Results

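Collagens are the most abundant proteins of the extracellular matrix, secreted as helical trimers of alpha chains. Fibrillar collagens build the cable-like fibrils of the tissue stroma, with collagen V as a nucleator and width regulator inside fibrils of collagens I and III. Collagen IV forms the sheet-like network of the basement membrane, on which epithelial and endothelial cells rest. FACIT collagens (fibril-associated collagens with interrupted helices) decorate fibril surfaces, and the remaining members form beaded filaments, short-chain networks, anchoring fibrils, membrane-bound collagens and the multiplexins of the basement membrane zone.

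The collagen genes measured here were taken by name, as every gene whose platform symbol is COL, a number, A and a number, from COL1A1 to COL28A1. This gave 43 genes read by 73 probes, of 20046 named genes on the array: 11 fibrillar, 6 basement membrane (the collagen IV chains), 10 FACIT and 16 other genes. They were compared between 2 samples of H23 cells overexpressing SOX7, a SOXF-subfamily transcription factor, and 2 control samples of H23 cells overexpressing green fluorescent protein (GFP). H23 is an established human lung cancer cell line. PolyA RNA of cells grown to near confluence was hybridised to Illumina HumanHT-12 v4 BeadChips, whose signals are given as log2 intensities. H1299 and PC14 cells, part of the same study, were not analysed here. The labels do not give the vector, the number of clones or the time of expression, nor whether samples of a group were separate cultures. The p-values therefore rest on a spread between samples that may be technical.

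Each array held 48107 probe values with the same median of 6.26, and precision is limited by having 2 arrays a group. Without detection values, signals close to that median could not be told from background. Genes were tested where the mean of the 4 arrays of their brightest probe reached the median of all probe means (6.25), with limma, and a gene passed at a Benjamini-Hochberg adjusted p under 0.05 over the 12804 genes tested. The brightest SOX7 probe read 6.53 and 6.78 in SOX7 arrays, against 6.18 and 6.45 in control arrays, a log2 difference of 0.34 that did not pass (limma adjusted p = 0.0583). The dimmer SOX7 probe differed by 0.0039. Whether these probes read the introduced transcript is not given in the sources used here, so the extent of SOX7 overexpression was not checked. The lung epithelial list had 4 of 9 markers above the filter, among them the keratin genes KRT8 and KRT18, while KRT19, CDH1, NKX2-1, NAPSA and SFTPB lay below it.

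Fibrillar collagens were lower and basement membrane collagens higher in SOX7 cells among the genes that passed. In bulk RNA, fewer cells expressing a gene and less of its RNA per cell cannot be told apart. Of the 43 collagen genes, 23 reached the filter and were tested; 4 rose and 5 fell, and 14 did not pass. The 9 that passed are 39.1% of the collagens tested, where 18.8% of all genes tested passed (8.98% higher and 9.83% lower). The 3 fibrillar genes that passed all fell (COL5A1, COL5A2 and COL3A1), and the basement membrane genes that passed all rose (COL4A1, COL4A5 and, with a control mean below the filter, COL4A6). COL4A6 thus reached the filter only through its SOX7 arrays, and without it 8 collagens passed, 3 of them higher. COL18A1, a multiplexin of basement membranes, also rose, and COL16A1, a FACIT, and COL6A1, a beaded filament chain, fell. Of the 23 tested, 4 passed with a change of at least 2-fold, as did 0.953% of all genes tested. The median log2 fold change (SOX7 minus control) was 0.021 over the 23 collagens, against 0.0035 over all genes tested.

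**Figure D1:**
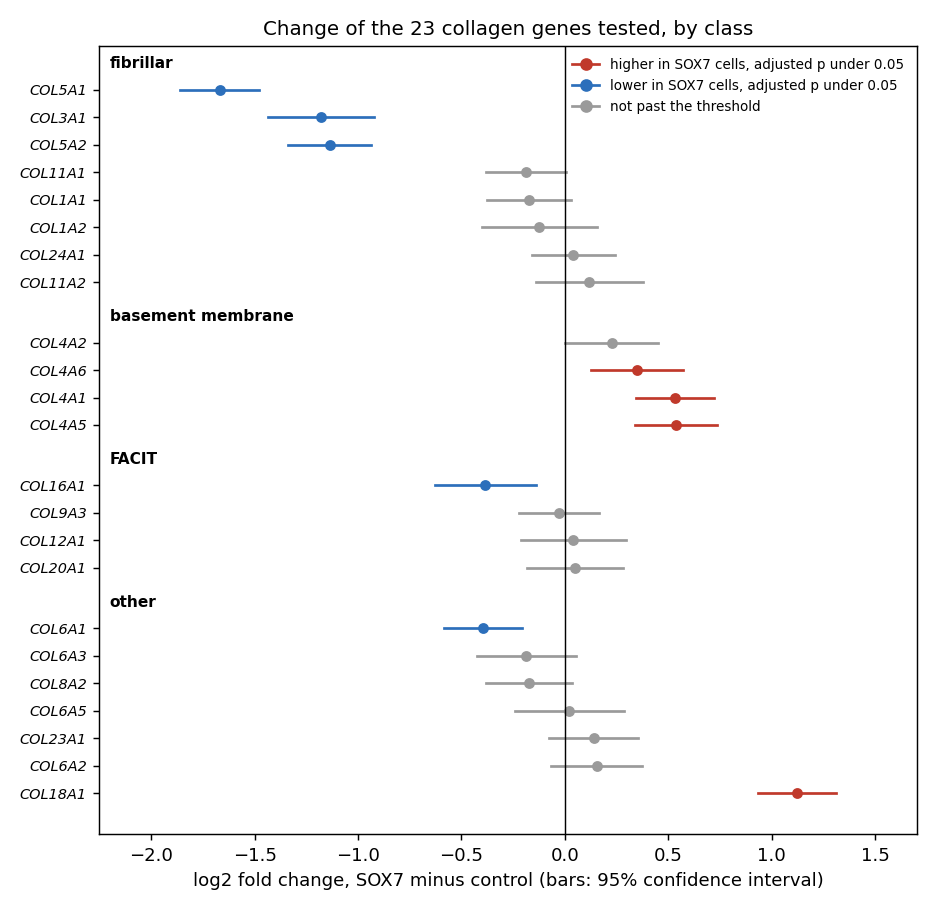
Log2 fold change (SOX7 minus control, horizontal axis) of the 23 collagen genes tested, grouped by class, with points for the estimate and bars for its 95% confidence interval, from 2 SOX7 and 2 control arrays. COL5A1, COL3A1 and COL5A2 lie between -1.67 and -1.14, COL18A1 at 1.12, and the 14 genes that did not pass between -0.19 and 0.23.

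Among fibrillar collagens, COL5A1, which encodes the pro-alpha chain that nucleates heterotypic fibrils, changed most. It read 6.49 and 6.42 in SOX7 arrays, against 8.14 and 8.10 in control arrays. Both SOX7 arrays were thus low, near the array median, and the groups were separated by far more than the gap within either pair. The signal was 3.18-fold lower in SOX7 cells (log2 fold change -1.67, SE 0.087, 95% confidence interval -1.86 to -1.48; limma adjusted p = 1.76e-07). As the SOX7 signal was not told from background, this is the fold of the signals and not a measured limit of the fall. COL5A2, which encodes the partner chain in collagen V trimers, read 9.50 and 9.43 in SOX7 arrays, against 10.52 and 10.68 in control arrays. It fell 2.20-fold (log2 fold change -1.14, SE 0.092; limma adjusted p = 7.28e-06) and stayed far above the array median in SOX7 cells. COL3A1, which encodes the chain of collagen III, a fibrillar collagen of elastic tissues and vessel walls, read 7.59 and 7.29 in SOX7 arrays, against 8.75 and 8.49 in control arrays. It fell 2.27-fold (log2 fold change -1.18, SE 0.12; limma adjusted p = 3.35e-05), with a wider gap within each pair than the collagen V genes but no overlap between groups.

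COL3A1 and COL5A2 are neighbours on chromosome 2. Around them, the genes nearest on either side (100 tested genes for each) had a median log2 fold change of 0.14. Around COL5A1 on chromosome 9 the same median was -0.0091.

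The other 5 fibrillar genes tested did not pass, and their differences ran from -0.19 to 0.12. COL1A1, which encodes the major chain of collagen I, the principal fibrillar collagen of bone, skin and tendon, read 6.79 and 6.63 in SOX7 arrays, against 6.93 and 6.85 in control arrays. Its groups did not overlap, but the difference of -0.17 (95% confidence interval -0.38 to 0.030) did not pass (limma adjusted p = 0.229). COL1A2, the gene of the other collagen I chain, differed by -0.12 with overlapping arrays (limma adjusted p = 0.549). COL11A1 and COL11A2, which encode chains of collagen XI, the cartilage counterpart of collagen V, differed by -0.19 (limma adjusted p = 0.170) and 0.12 (limma adjusted p = 0.540). COL24A1, a minor fibrillar collagen, differed by 0.042 (limma adjusted p = 0.802). COL2A1, COL5A3 and COL27A1 lay below the filter on the mean of their arrays, at 5.97 to 6.08, and were not tested. The median over the 8 fibrillar genes tested was -0.18. The SOX7 means of COL11A1 (6.19) and COL1A2 (6.21) lay below the filter, so both were tested only because of their control arrays. This median rests partly on them.

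**Figure D2:**
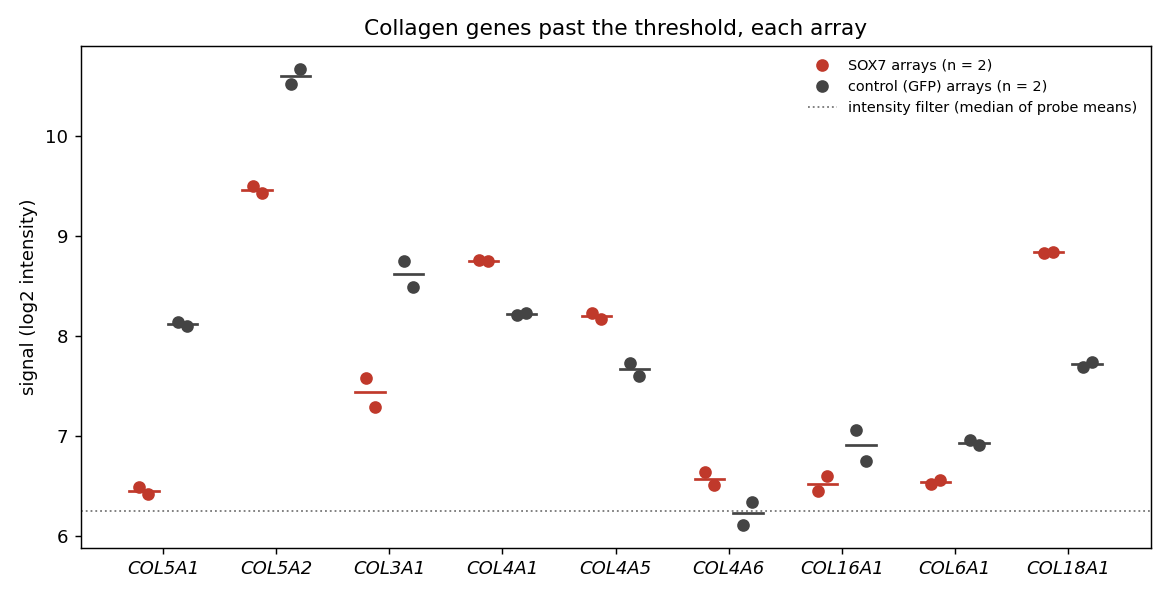
Log2 signal of each array (points) and group mean (short lines) for the 9 collagen genes that passed, SOX7 arrays (n = 2) to the left of control arrays (n = 2), with the intensity filter dotted. The groups do not overlap for any of the 9 genes, and SOX7 arrays are low for COL5A1 (6.49 and 6.42) and high for COL18A1 (8.84 for both).

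Collagen IV is built from 6 chains, whose genes lie in head-to-head pairs, COL4A1 with COL4A2, COL4A3 with COL4A4 and COL4A5 with COL4A6. COL4A1, which encodes a chain of the network found in nearly all basement membranes, read 8.76 and 8.75 in SOX7 arrays, against 8.21 and 8.24 in control arrays. Arrays of a group lay close together, and COL4A1 rose 1.45-fold (log2 fold change 0.53, SE 0.086; limma adjusted p = 0.00113). COL4A2, whose product joins that of COL4A1 in the same trimers, read 6.61 and 6.73 in SOX7 arrays, against 6.57 and 6.32 in control arrays. The groups did not overlap, but the difference of 0.23 (95% confidence interval 0.00054 to 0.45) did not pass (limma adjusted p = 0.155). It passed without control replicate 1 (0.35, limma adjusted p = 0.0449).

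COL4A5, which encodes a chain of epithelial and kidney basement membranes, read 8.23 and 8.17 in SOX7 arrays, against 7.73 and 7.60 in control arrays, and rose 1.45-fold (log2 fold change 0.54, SE 0.091; limma adjusted p = 0.00154). Its second probe, for another transcript and dim on all arrays, differed by 0.17 and did not pass in the fit with every probe on its own, where 6.7% of 30113 probes passed (limma adjusted p = 0.423); for the mean of both probes COL4A5 rose by 0.35 (adjusted p = 0.0122). COL4A6, the partner gene of COL4A5, read 6.64 and 6.51 in SOX7 arrays, against 6.11 and 6.34 in control arrays. The control mean of 6.23 lay below the filter, so the gene was tested only because of its SOX7 arrays, and the size of the change is not bounded on the control side. The signal was 1.27-fold higher in SOX7 cells (log2 fold change 0.35, SE 0.10; limma adjusted p = 0.0336), and with no intensity filter it did not pass (0.0709). This is the weakest call of the 9: leaving out control replicate 1 gave 0.23 with an adjusted p of 0.217, the adjusted p was 0.175 without SOX7 replicate 1 and 0.0537 without SOX7 replicate 2, and the other probes of COL4A6 differed by 0.012 and -0.11. COL4A3 and COL4A4, the chains of the glomerular and alveolar network, lay below the filter (5.86 and 6.18 at the limits) and were not tested. All 4 collagen IV genes tested had arrays that did not overlap between groups, as had 14 of the 23 collagens and 58.5% of all genes tested, and their median log2 fold change was 0.44.

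Since the collagen IV genes that rose lie in divergent pairs, sequence from the start region of each pair is shown, from the RefSeq annotation of GRCh38.p14. Capitals mark every CCAAT (reverse ATTGG, the CCAAT box), GGGCGG (reverse CCGCCC, the GC box), TATAAA (reverse TTTATA, the TATA box) and AACAAT (reverse ATTGTT, a core of SOX factor motifs), searched on both strands. The stretch between the starts of COL4A1 (minus strand) and COL4A2 (plus strand) is 126 bases long, at chr13:110307158-110307283, is read along the plus strand, has a GC content of 80.2% and holds 1 CCAAT box and 1 GC box.
COL4A1-COL4A2 interval: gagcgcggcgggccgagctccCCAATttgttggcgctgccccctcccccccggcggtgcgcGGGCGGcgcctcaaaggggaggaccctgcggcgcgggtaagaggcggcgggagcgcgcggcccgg
The starts of COL4A5 (plus strand) and COL4A6 (minus strand) lie 380 bases apart. The 250 bases before the COL4A5 start, at chrX:108439588-108439837 on the plus strand, have a GC content of 51.2% and hold 2 CCAAT boxes. The part nearest the COL4A6 start is not shown, and the 250 bases before that start hold 3 CCAAT boxes and 1 SOX core.
COL4A5: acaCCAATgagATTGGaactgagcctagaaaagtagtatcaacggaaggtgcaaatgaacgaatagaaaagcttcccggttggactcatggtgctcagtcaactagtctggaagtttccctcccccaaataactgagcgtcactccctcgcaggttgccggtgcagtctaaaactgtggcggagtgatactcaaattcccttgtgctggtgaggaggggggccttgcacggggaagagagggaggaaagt
For the collagen with the largest fall and the one with the largest rise, the 250 bases before the start are shown in the same way: COL5A1 at chr9:134641553-134641802 and COL18A1 at chr21:45404915-45405164, both on the plus strand, with 2 and 9 GC boxes, counting overlapping matches.
COL5A1: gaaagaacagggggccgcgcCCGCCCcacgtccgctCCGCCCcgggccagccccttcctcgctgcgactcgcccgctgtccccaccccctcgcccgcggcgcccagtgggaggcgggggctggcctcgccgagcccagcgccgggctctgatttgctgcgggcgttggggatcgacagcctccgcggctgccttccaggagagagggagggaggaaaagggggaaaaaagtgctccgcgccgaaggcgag
COL18A1: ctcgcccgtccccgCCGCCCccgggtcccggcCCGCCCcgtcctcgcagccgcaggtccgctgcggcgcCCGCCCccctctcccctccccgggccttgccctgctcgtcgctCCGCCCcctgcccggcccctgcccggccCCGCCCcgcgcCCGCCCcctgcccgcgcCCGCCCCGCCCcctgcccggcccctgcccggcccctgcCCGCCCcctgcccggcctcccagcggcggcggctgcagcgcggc
Of the 23 collagens tested, 15 matched an entry in the promoter table. A CCAAT box stood in 5 of the 15 windows, those of the 4 collagen IV genes tested, whose windows overlap within each pair, and of COL11A1, where 33.04% of the 27305 windows of all genes hold it. A GC box stood in 10 of 15 (42.3% of all windows), a TATA box in 1 of 15, COL6A2 (11.1%), and the SOX core in 1 of 15, COL4A6 (9.19%). A match is a run of letters only, and the absence of a match concerns only these 250 bases.

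Of the FACIT collagens, 4 of 10 were tested, 0 rose and 1 fell. COL16A1, which encodes a chain that associates with fibrils and integrins, read 6.45 and 6.60 in SOX7 arrays, against 7.06 and 6.75 in control arrays. The signal was 1.31-fold lower in SOX7 cells (log2 fold change -0.38, SE 0.11, limma adjusted p = 0.0318), with the control arrays further apart than the SOX7 arrays. As the SOX7 signal lay near the array median, this is the fold of the signals and not a measured limit of the fall. The call was lost without control replicate 1 (-0.23, adjusted p = 0.220) and without SOX7 replicate 1 (-0.31, adjusted p = 0.175). COL12A1, which lies on the surface of collagen I fibrils, differed by 0.041 with overlapping arrays (limma adjusted p = 0.850), COL20A1 by 0.049 (adjusted p = 0.799) and COL9A3, a cartilage collagen chain, by -0.029 (adjusted p = 0.861). The other 6 (COL9A1, COL9A2, COL14A1, COL19A1, COL21A1 and COL22A1) lay at 5.89 to 6.25, below the filter.

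Of the 16 other collagens, 7 were tested, 1 rose and 1 fell (28.6% passed, against 18.8% of all genes tested). COL18A1, which encodes the core protein of a heparan sulfate proteoglycan of basement membranes whose cleaved end is endostatin, an inhibitor of vessel growth, read 8.84 in both SOX7 arrays, against 7.69 and 7.74 in control arrays. It rose 2.18-fold (log2 fold change 1.12, SE 0.086, 95% confidence interval 0.94 to 1.31; limma adjusted p = 4.58e-06). A second COL18A1 probe lay near the bottom of the array, at 5.84 and 5.75 in SOX7 arrays against 5.63 and 5.88 in control arrays, and differed by 0.038 (limma adjusted p = 0.903 with every probe on its own). For the mean of both probes COL18A1 rose by 0.58 (adjusted p = 0.00106).

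COL6A1, which encodes a chain of the beaded filaments of collagen VI around cells, read 6.52 and 6.56 in SOX7 arrays, against 6.96 and 6.91 in control arrays. The signal was 1.31-fold lower in SOX7 cells (log2 fold change -0.40, SE 0.086, limma adjusted p = 0.00769). As the SOX7 signal lay near the array median, this is the fold of the signals and not a measured limit of the fall. The genes of its partner chains did not pass: COL6A2 differed by 0.15 (adjusted p = 0.326) and COL6A3 by -0.19 (adjusted p = 0.271). The SOX7 mean of COL6A3 (6.18) lay below the filter, so it was tested only because of its control arrays. The COL6A2 probes went both ways, the other 2 differing by -0.23 and -0.19. COL18A1, COL6A1 and COL6A2 all lie on chromosome 21, where the nearest tested genes had a median log2 fold change of -0.12 around both COL18A1 and COL6A1. COL6A5, a later-described collagen VI chain, differed by 0.021 at its brightest probe (adjusted p = 0.932), whereas a dim probe of it below the filter, at 5.90 and 5.88 in SOX7 arrays against 6.49 and 6.19 in control arrays, differed by -0.45 (limma adjusted p = 0.0293 with every probe on its own).

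COL8A2, a short-chain network collagen of the cornea and vessels, read 6.92 and 6.76 in SOX7 arrays, against 7.08 and 6.95 in control arrays, and its difference of -0.17 did not pass (adjusted p = 0.240). COL23A1, a transmembrane collagen, differed by 0.14 (adjusted p = 0.365). COL6A6, COL7A1, COL8A1, COL10A1, COL13A1, COL15A1, COL25A1, COL26A1 and COL28A1 lay below the filter. In all, 20 collagen genes were left untested, with means of 5.74 to 6.25 and differences of -0.14 to 0.28. With no intensity filter all 43 were tested, 7 passed, and all 7 were among the 9 above.

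**Figure D3:**
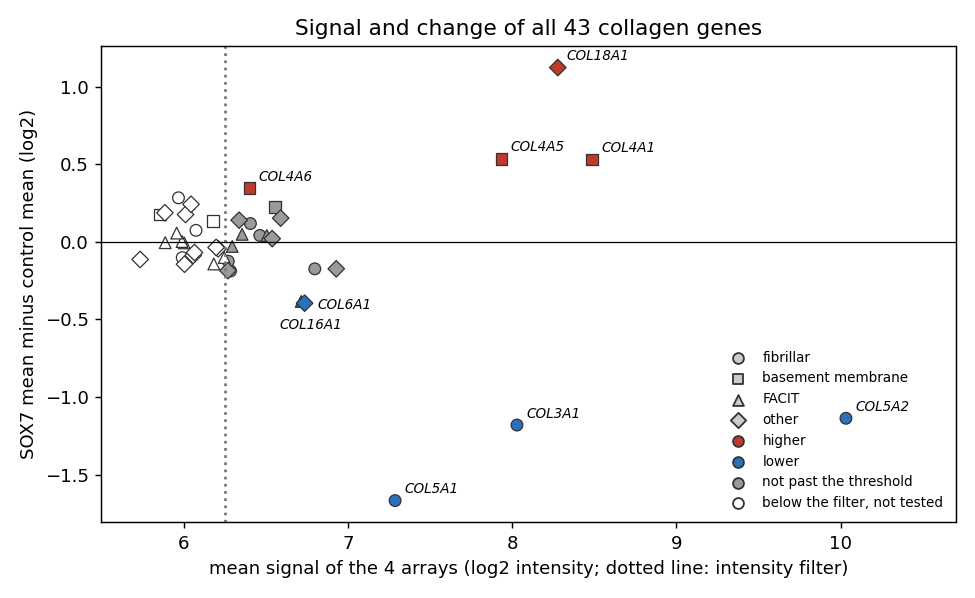
Mean log2 signal of the 4 arrays (horizontal axis, intensity filter dotted) against the SOX7 mean minus the control mean (vertical axis, log2) for all 43 collagen genes, with shapes for class and fill for the outcome of the test. The 20 open symbols left of the line were not tested, and the 6 genes above the 75th percentile of probe means all passed. With the filter at that percentile, 2642 of 7918 genes passed.

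The 9 collagens that passed include all 6 whose brightest probe lay above the 75th percentile of probe means (COL5A2, COL4A1, COL18A1, COL3A1, COL4A5 and COL5A1). Passing was also more frequent among all genes at that level, 2642 of 7918 with the filter at the 75th percentile, against 2408 of 12804 at the median. Of the 17 tested collagens below the 75th percentile, COL6A1, COL16A1 and COL4A6 passed. SEs of the 9 log2 fold changes ran from 0.086 to 0.12. The 5 tested genes whose arrays did not overlap and which did not pass were COL4A2, COL1A1, COL11A1, COL8A2 and COL23A1.

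Collagens fold and leave the cell with the help of prolyl and lysyl hydroxylases, glycosyltransferases and chaperones. Of 19 tested genes of collagen biosynthesis and secretion, 1 rose and 4 fell, with a median log2 fold change of -0.19. Of this list 26.3% passed, against 18.8% of all genes tested (8.98% higher and 9.83% lower). P3H2, a prolyl hydroxylase known for acting on collagen IV, read 9.94 and 10.04 in SOX7 arrays, against 11.15 and 11.08 in control arrays, and fell 2.19-fold (log2 fold change -1.13, SE 0.089; limma adjusted p = 5.90e-06). COLGALT1, a collagen galactosyltransferase (-0.41), PLOD1, a lysyl hydroxylase (-0.34), and SERPINH1, the collagen chaperone of the endoplasmic reticulum (-0.33), fell as well, with adjusted p-values of 0.0133, 0.0264 and 0.0299. Each of these 3 calls was lost when some arrays were left out: COLGALT1 without control replicate 2 (0.0958) or SOX7 replicate 2 (0.0695), PLOD1 without control replicate 2 (0.116) or SOX7 replicate 2 (0.171), and SERPINH1 without control replicate 1 (0.170), SOX7 replicate 1 (0.0538) or SOX7 replicate 2 (0.160). With no intensity filter PLOD1 (0.0581) and SERPINH1 (0.0654) did not pass. TMEM38B, an ion channel of the endoplasmic reticulum linked to collagen modification, rose by 0.51 (adjusted p = 0.00624), with a second probe at 0.057 and a rise of 0.28 for the mean of both (adjusted p = 0.0452).

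Outside the cell, procollagen is trimmed, crosslinked, bound and cleaved. Of 8 tested processing and crosslinking genes, 1 rose and 1 fell (2 of 8 passed, against 18.8% of all genes tested, median -0.039). The control mean of ADAMTS14 (6.23) lay below the filter, so it was tested only because of its SOX7 arrays. The SOX7 mean of LOXL3 (6.2499) lay just below the filter (6.2508), so it was tested only because of its control arrays. The median rests partly on these genes and on ADAMTS3. ADAMTS3, a procollagen N-proteinase, read 6.75 and 6.80 in SOX7 arrays, against 6.25 and 6.09 in control arrays, with a log2 fold change of 0.60 (limma adjusted p = 8.12e-04). Its control mean of 6.17 lay below the filter, so it was tested only because of its SOX7 arrays, and no fold is given; it also passed with no intensity filter (0.00240). PCOLCE2, an enhancer of procollagen C-proteinase, read 10.79 and 10.73 in SOX7 arrays, against 11.42 and 11.20 in control arrays, and fell 1.47-fold (-0.56; adjusted p = 0.00193). The lysyl oxidase gene LOX differed by -0.055 (adjusted p = 0.726).

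Of 9 tested collagen receptors, 1 rose and 2 fell (33.3% passed, against 18.8% of all genes tested, median 0.11). The control means of ITGA10 (6.21) and GP6 (6.20) lay below the filter, so both were tested only because of their SOX7 arrays. The median is the difference of GP6 itself. ITGA2, the alpha subunit of an integrin that binds collagens, read 10.57 and 10.61 in SOX7 arrays, against 9.78 and 9.83 in control arrays, and rose 1.72-fold (log2 fold change 0.79; limma adjusted p = 7.31e-05). ITGB1, the shared beta subunit, fell by 0.34 on the log2 scale (adjusted p = 0.0203), and MRC2, an endocytic collagen receptor, by 0.27 (adjusted p = 0.0476). At its brightest probe, the ITGB1 call was lost without control replicate 2 (0.100), SOX7 replicate 1 (0.0582) or SOX7 replicate 2 (0.101). With every probe on its own, the brightest ITGB1 probe did not pass (limma adjusted p = 0.0603). The other ITGB1 probes above the filter were both lower and passed in that fit, by -0.64 (adjusted p = 0.00146) and -0.35 (0.0479). The MRC2 call was lost without each of the 4 arrays (0.0825 to 0.184), with no intensity filter (0.101), with the trend and robust prior (0.0764) and with the offset (0.0576). Of 5 tested collagen-cleaving proteases, 1 rose and 0 fell (1 of 5 passed, against 18.8% of all genes tested, median 0.11). The control mean of MMP2 (6.22) lay below the filter, so it was tested only because of its SOX7 arrays. MMP1, interstitial collagenase, read 8.48 and 8.31 in SOX7 arrays, against 7.45 and 7.26 in control arrays. It rose 2.05-fold (log2 fold change 1.04, adjusted p = 2.71e-05).

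Of 6 tested proteoglycans and glycoproteins that associate with fibrils, 1 rose and 1 fell (33.3% passed, against 18.8% of all genes tested, median -0.020). BGN, the small proteoglycan biglycan, read 9.75 and 9.74 in SOX7 arrays, against 10.26 and 10.34 in control arrays, and fell 1.47-fold (limma adjusted p = 9.59e-04). LUM, lumican, read 6.69 and 6.79 in SOX7 arrays, against 6.21 and 6.23 in control arrays, with a log2 fold change of 0.52 (adjusted p = 0.00156) and a dim second probe at 0.044. The LUM control mean of 6.22 lay below the filter as well, and LUM also passed with no intensity filter (0.00457).

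Of 9 tested partners of collagen IV in basement membranes, 4 rose and 1 fell (55.6% passed, against 18.8% of all genes tested, median 0.18). PXDN, peroxidasin, which crosslinks collagen IV, read 9.95 and 9.77 in SOX7 arrays, against 8.68 and 9.19 in control arrays, and rose 1.90-fold (log2 fold change 0.93, SE 0.14; limma adjusted p = 7.60e-04). The laminin genes LAMA1 (0.48), LAMB1 (0.47) and LAMA5 (0.34) rose, with adjusted p-values of 0.00266, 0.00239 and 0.0165. LAMB2, another laminin beta chain, read 7.52 and 7.47 in SOX7 arrays, against 8.29 and 8.44 in control arrays, and fell 1.83-fold (-0.87; adjusted p = 4.98e-05). The LAMA5 call was lost without control replicate 2 (0.0690), SOX7 replicate 1 (0.0600) or SOX7 replicate 2 (0.0762), and a dim second LAMA1 probe differed by 0.042, with a rise of 0.26 for the mean of both LAMA1 probes (adjusted p = 0.0344). LAMA5 also did not pass with every probe on its own (limma adjusted p = 0.0521). Nidogen 1 (NID1), which links laminin to collagen IV, differed by -0.074 (adjusted p = 0.617).

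**Figure D4:**
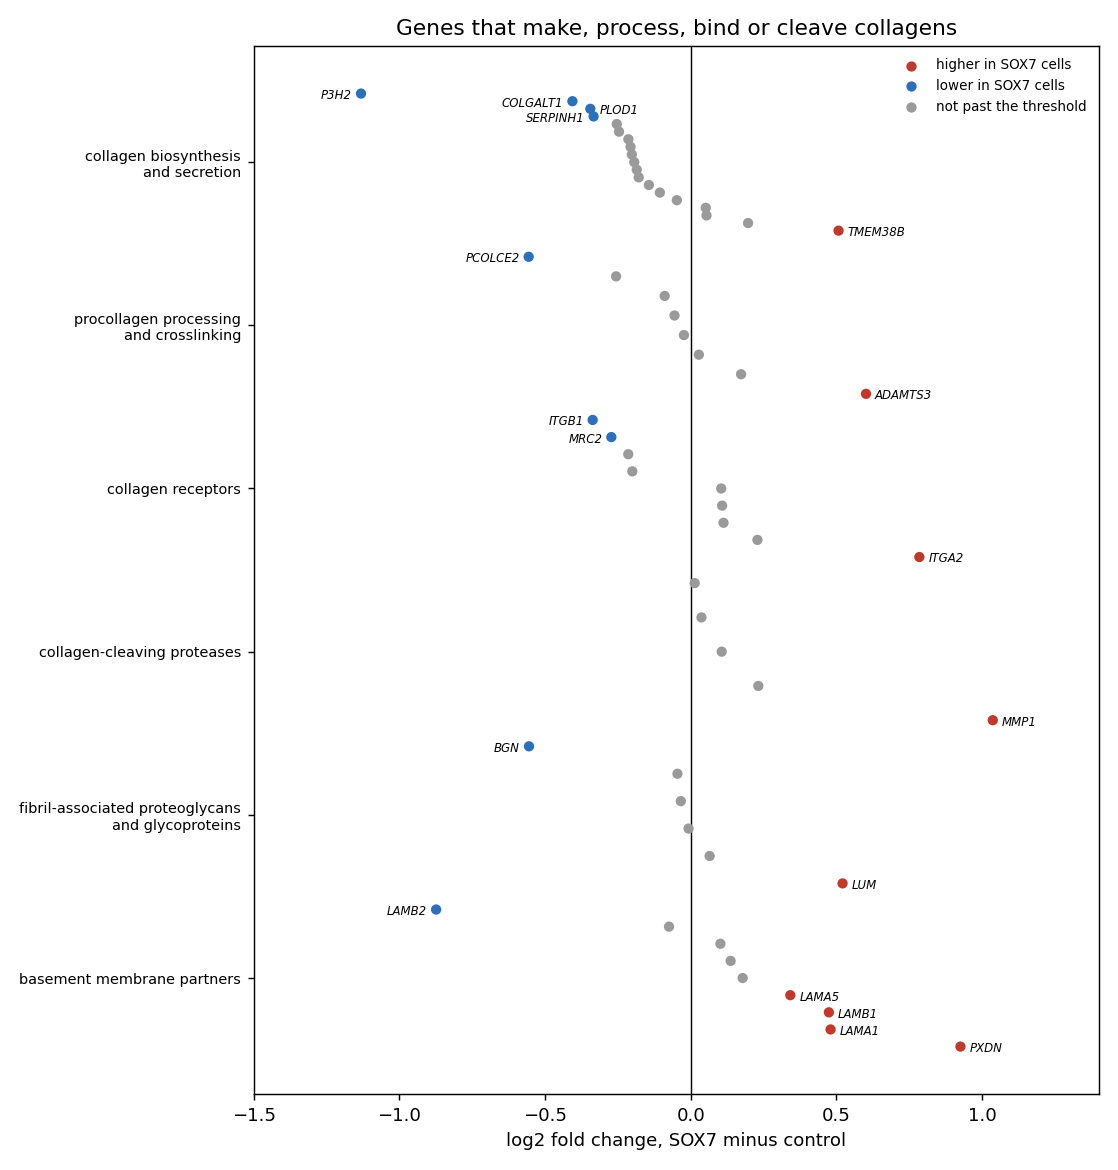
Log2 fold change (SOX7 minus control) of the tested genes of 6 lists of collagen partners, one point per gene, coloured by the outcome of the test and named where it passed. P3H2 lies furthest to the left at -1.13 and MMP1 furthest to the right at 1.04.

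Fibroblasts are a common source of fibrillar collagens. Of 7 fibroblast markers, PDGFRA, PDGFRB, PDPN, TCF21 and THY1 lay below the filter. The THY1 probe read 5.83 and 5.68 in SOX7 arrays, against 6.31 and 6.34 in control arrays, and differed by -0.57 with every probe on its own (limma adjusted p = 0.00344). S100A4, which many tumour cells also express, fell by 1.22 on the log2 scale (limma adjusted p = 2.67e-06) and ACTA2 rose by 0.37 (adjusted p = 0.0241). The summed linear signal of the 7 markers was 946 and 887 in SOX7 arrays, against 1430 and 1413 in control arrays. Without S100A4 and ACTA2 it was 324 and 309 in SOX7 arrays, against 332 and 352 in control arrays, a sum of markers below the filter only. Of 8 endothelial markers, 1 (ERG, with a control mean of 6.19 below the filter) was tested and did not pass. The summed signal of the 8 was 521 and 491 in SOX7 arrays, against 521 and 522 in control arrays. The 7 below the filter gave 434 and 415 of it in SOX7 arrays, against 453 and 443 in control arrays. This sum thus mostly reads signals not told from background. Of 5 leukocyte markers with a probe, PTPRC and CD3E lay below the filter, CD14 rose by 0.64 (adjusted p = 4.82e-04), CD68 fell by 1.04 (adjusted p = 5.07e-05; its other probes above the filter differed by -0.29 and -0.28 and did not pass) and ITGAM differed by -0.083 (adjusted p = 0.594). The summed signal of these 5 was 1697 and 1597 in SOX7 arrays, against 2288 and 1953 in control arrays. Of the lung epithelial markers tested, KRT18 rose by 0.45 (adjusted p = 0.00453; second probe 0.40), while KRT8 differed by 0.22 (0.136), EPCAM by 0.14 (0.329) and KRT7 by -0.028 (0.879). The summed signal of the 9 epithelial markers was 1341 and 1328 in SOX7 arrays, against 1150 and 1128 in control arrays. The part of these markers in the collagen changes was not tested.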

How the data were processed

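RNA was isolated with RNeasy columns and labelled with biotin, per the labels. The deposited table holds log2 intensities; their sorted values differed between arrays by at most 0.000683, so the authors' values had been quantile normalized. Software and background correction are not stated in the sources used. Of 48107 probes, 30113 carried 1 gene in the platform annotation, 8 several and 17986 none. The brightest probe of each gene was kept, and genes below the median of probe means (6.25) were left out.

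Groups were compared with limma 3.58.1 (R 4.3.3), two-sided, with Benjamini-Hochberg adjustment over the 12804 genes tested; the fit was tested on simulated data. The text names every collagen that passed, up to 3 of the brightest others per class, and up to 6 partner genes per list that passed, by smallest p. Others that complete small counts (COL1A2, COL11A1, COL6A3, COL23A1, LOX, NID1 and markers) were named after their values were seen. The collagens and lists were chosen with earlier results of these data known. Alternatives were no filter, a filter at the 75th percentile, the mean of probes, every probe on its own, a prior with trend and robust estimation, an offset of 16 on linear intensities, median centring, the replicate number as a block and leaving out each array (a lone array is assumed to vary like the other group).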

Additional observations from a re-analysis of the deposited data

How the results depend on the processing

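The calls of COL5A1, COL5A2, COL3A1, COL4A1, COL4A5, COL18A1 and COL6A1 kept their direction and their side of the threshold under every alternative that tested them; COL6A1 was not tested at the 75th percentile filter. Over the 9 collagens, 95 of 104 values under alternatives kept both, and 9 lost the call, 5 of COL4A6 and 4 of COL16A1. Besides the fits without an array given above, these were lost with no filter (adjusted p = 0.0709 for COL4A6 and 0.0660 for COL16A1) and with every probe on its own (0.0835 and 0.0734). The number of collagens that passed was 6 to 9 over all alternatives and 7 to 9 on leaving out an array. At the 75th percentile filter 3 fell against 5, because COL16A1 and COL6A1 were not tested there. Of the collagens that did not pass, COL6A2 changed sign with the mean of probes (-0.088). On leaving out an array, differences ran from -0.16 to 0.20 for COL6A5, -0.14 to 0.22 for COL12A1, -0.046 to 0.13 for COL24A1, -0.10 to 0.1998 for COL20A1 and -0.082 to 0.023 for COL9A3, and those that changed sign did not pass; the cause was not tested. Partner-list genes past the threshold numbered 18, and 12 to 19 under the alternatives. The count over all genes, 2408, was 1529 to 1984 on leaving out an array, with 1567 without SOX7 replicate 1 and 1529 without SOX7 replicate 2. The difference of the SOX7 probe passed with the trend and robust prior (0.34, adjusted p = 0.0487) and with the replicate block (0.34, adjusted p = 0.00906), and on leaving out an array it ran from 0.21 to 0.48. Deviations of same-numbered samples were almost uncorrelated over 12804 genes (r = -0.017). Whether same-numbered samples were handled together is not given by the labels, and this value cannot tell. With the replicate block, 9 collagens and 2834 genes passed.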
